A study of Homo sapiens with 9 samples.

Results

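Junction genes were followed in HCT116, a human cell line established from a colon carcinoma. They were the adherens junction cadherin CDH1, the claudins CLDN1, CLDN3, CLDN4, CLDN7 and CLDN12, and the tight junction genes OCLN, TJP1 and F11R. The genes were chosen by name, with earlier results of these data known. They were matched by Ensembl gene identifier, and all 9 were found among the 58395 genes of each table. The 9 RNA-seq libraries fell into 3 groups of 3: plvx neo (empty vector), STBD1 WT and STBD1 W203C. Every group, the vector control included, carried shSTBD1, a hairpin against STBD1, which encodes a glycogen-binding protein that the study examined in glycogen autophagy. Both constructs resist the hairpin, and W203C replaces a tryptophan of the motif that binds ATG8-family proteins. Each group was a lentivirally infected, drug-selected HCT116 population, so any difference between groups cannot be told apart from a difference between the selected populations. No library with an intact STBD1 level and no hairpin was used here.

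The labels of the samples disagree with the table names about which construct is which. Libraries are named by their labels throughout. If the labels were exchanged, each difference between WT and W203C would change sign and each comparison with plvx neo would belong to the other construct. STBD1 was listed at 2.75 to 3.84 TPM (transcripts per M transcripts, M for mega, a level scaled by transcript length) with the vector, 10.8 to 10.9 with STBD1 WT and 8.37 to 10.3 with STBD1 W203C, so its level separated the vector from both constructs without naming either. The overlapping gene FAM47E-STBD1 separated them in the same way, at 0.960 to 2.41, 41.5 to 46.1 and 34.7 to 38.4 TPM. Between the constructs STBD1 was lower in W203C (log2 fold change -0.28, SE 0.0772, Benjamini-Hochberg adjusted p = 0.00945 by the edgeR quasi-likelihood test). A difference between WT and W203C in another gene cannot be told apart from this difference in STBD1 level. Total expected counts were 16.9 to 23.3 M per library. Of 7 colon epithelial markers, VIL1, which encodes the microvillus protein villin, stayed between 0 and 0.483 CPM (counts per M reads assigned to genes, here always TMM-normalised), while EPCAM, KRT8, KRT18, KRT19, CDX2 and CDH1 were well detected. Of 8 markers of endothelium, leukocytes and fibroblasts, 7 summed to at most 0.973 CPM in any library. The exception was the collagen gene COL1A1, at 30.2 to 33.4 CPM in plvx neo, 41.9 to 45.4 in WT and 28.7 to 33.2 in W203C, while the other fibroblast markers COL1A2 and PDGFRB together did not exceed 0.438 CPM.

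Tight junctions seal the space between epithelial cells near their apical side. Claudins are multi-pass membrane proteins whose extracellular loops form the paracellular barrier or its pores, occludin (OCLN) and the immunoglobulin-like protein JAM-A (F11R) sit in the same strands, and ZO-1 (TJP1) ties them to actin. Below them, E-cadherin (CDH1) holds adherens junctions together through catenins. In colon epithelium these proteins set permeability and polarity, and their loss is a known feature of the epithelial-to-mesenchymal transition.

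CLDN3 and CLDN4 are neighbours on chromosome 7 (hg38), CLDN3 on the minus strand at chr7:73768997-73770270 and CLDN4 on the plus strand at chr7:73799542-73832690, with 29271 bases between the annotated genes. The canonical transcript of each has 1 exon. CLDN7 lies at chr17:7259903-7263983 on the minus strand and has 4 exons. The RefSeq sequence (GRCh38.p14) of the 250 bases before the start of each canonical transcript, which for CLDN4 and CLDN7 lies inside the span of the annotated gene, is printed below, because CLDN4 and CLDN7 differed between groups and CLDN3, the neighbour of CLDN4, passed the test in no comparison. The windows are chr7:73830746-73830995 (plus strand) for CLDN4, chr7:73770271-73770520 (minus strand) for CLDN3 and chr17:7262479-7262728 (minus strand) for CLDN7, each 5′ to 3′ on its gene's strand. Capitals mark matches on either strand to the AP-1 motif TGANTCA, the E-box CAGGTG or the GC box GGGCGG.
CLDN4: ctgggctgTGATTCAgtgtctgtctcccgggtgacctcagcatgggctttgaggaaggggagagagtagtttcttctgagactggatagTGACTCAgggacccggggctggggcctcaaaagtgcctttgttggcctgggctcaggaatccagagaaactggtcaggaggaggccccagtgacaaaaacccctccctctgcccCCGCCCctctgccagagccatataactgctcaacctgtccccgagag
CLDN3: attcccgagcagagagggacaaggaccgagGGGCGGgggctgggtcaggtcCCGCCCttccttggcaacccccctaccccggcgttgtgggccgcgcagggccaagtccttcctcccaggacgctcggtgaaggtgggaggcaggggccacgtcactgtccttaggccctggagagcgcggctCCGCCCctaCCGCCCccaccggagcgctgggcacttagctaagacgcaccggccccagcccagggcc
CLDN7: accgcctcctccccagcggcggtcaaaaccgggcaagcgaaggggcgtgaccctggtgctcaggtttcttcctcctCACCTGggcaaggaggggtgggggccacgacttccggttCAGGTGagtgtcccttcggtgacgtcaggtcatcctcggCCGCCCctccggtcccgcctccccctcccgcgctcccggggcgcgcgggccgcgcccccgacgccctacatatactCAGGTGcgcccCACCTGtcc

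The CLDN4 window held 2 AP-1 matches and 1 GC box, the CLDN3 window 4 GC boxes, and the CLDN7 window 4 E-box matches and 1 GC box. Across 35097 RefSeq windows of the same length, 6.57% held at least 1 AP-1 match, 17.5% at least 1 E-box and 42.6% at least 1 GC box. The share of windows with several matches was not computed. A grainyhead motif (AACCNGTT, in 1.49% of windows) and a kappaB motif (in 9.95%) were also searched and were found in none of these 3. The motifs were chosen with the sequences in view, and a match is a string of letters, not a shown binding site.

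The claudins differed widely in level. CLDN4, a claudin of tight colonic epithelium, averaged 172.1 TPM over the 9 libraries and CLDN7, a basolateral as well as junctional claudin, 137 TPM. F11R followed at 31.9 TPM, TJP1 at 27.0, CDH1 at 23.7, OCLN at 15.8, CLDN3 at 13.2 and CLDN12 at 11.7. CLDN1, a barrier-forming claudin, was close to absent at 0.0833 TPM, with 1 to 11 counts per library, and was too low to test, so 8 of the 9 genes were tested. In this order CLDN4 was above CLDN7 in 7 of 9 libraries, CLDN7 above F11R and F11R above TJP1 in 9 of 9, TJP1 above CDH1 in 7 of 9, CDH1 above OCLN in 9 of 9, OCLN above CLDN3 in 8 of 9 and CLDN3 above CLDN12 in 7 of 9. CLDN7 stood above CLDN4 in 2 of 3 vector libraries, and CLDN4 above CLDN7 in all 6 construct libraries. The pairs TJP1 and CDH1, OCLN and CLDN3, and CLDN3 and CLDN12 exchanged places in some libraries, so their order over all 9 is not firm.

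**Figure D1:**
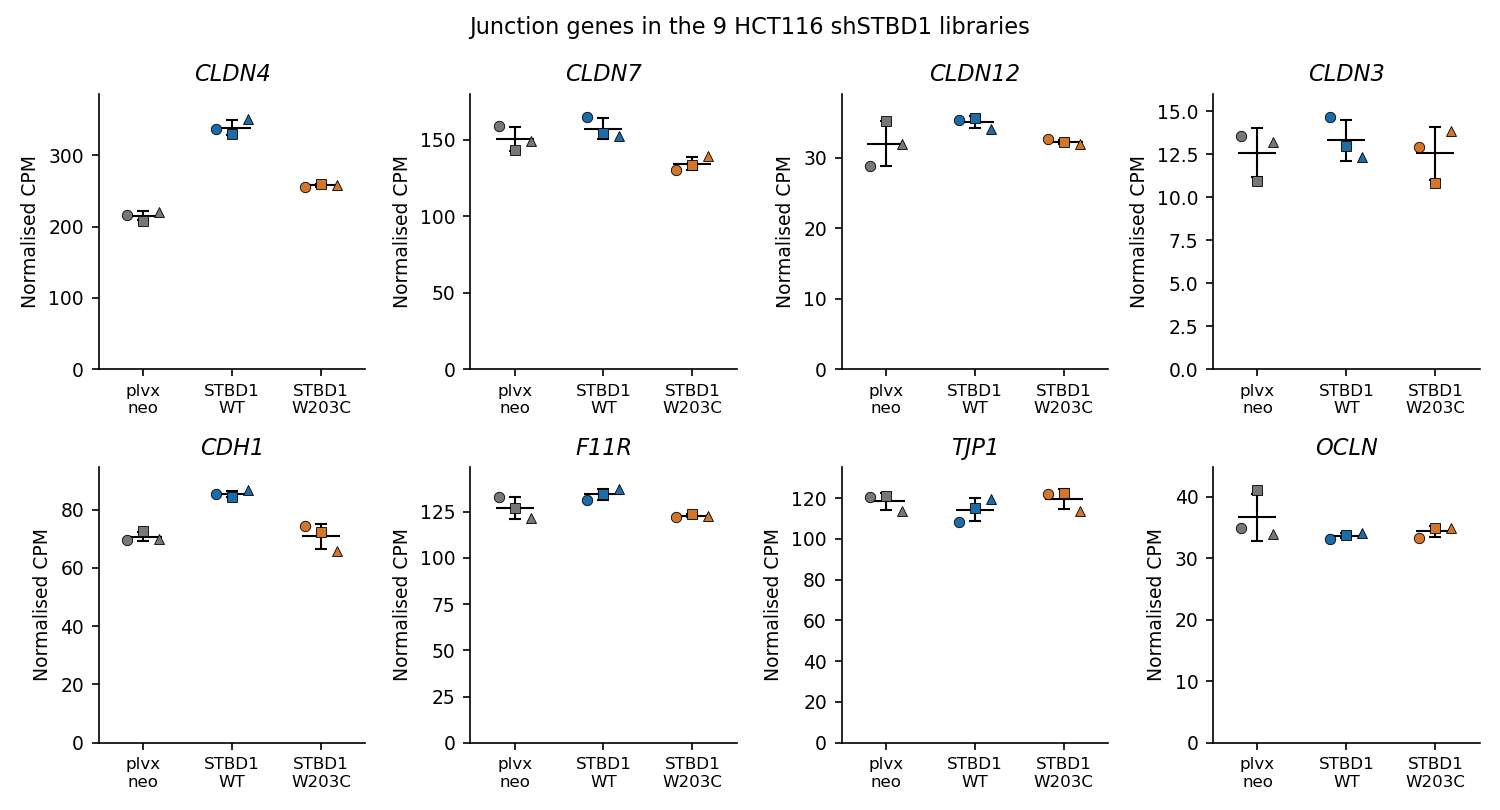
TMM-normalised CPM of the 8 tested junction genes (y axis, from 0) in the 3 groups (x axis). Each point is 1 library, with shapes for replicates 1 to 3, and the bar with whiskers is the mean ± SD. The 3 CLDN4 groups are fully separated (208 to 221, 329 to 351 and 255 to 259.7 CPM), CDH1 stands higher in WT alone, and CLDN3, OCLN and TJP1 overlap between groups.

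CLDN4 separated all 3 groups. It was at 216, 208 and 221 CPM in plvx neo, 336, 329 and 351 in WT, and 255, 259.7 and 257 in W203C. Each W203C library lay above every vector library and below every WT library. CLDN4 was 57.8% higher in WT than in plvx neo (log2 fold change 0.66, SE 0.0377, Benjamini-Hochberg adjusted p = 1.26e-10 by the edgeR quasi-likelihood test). It was 19.6% higher in W203C than in plvx neo (0.26, SE 0.0369, edgeR adjusted p = 6.16e-05). Between the constructs it fell by 23.9% in W203C (-0.39, SE 0.0364, edgeR adjusted p = 9.94e-08). In bulk RNA, more cells with the transcript and more transcript per cell cannot be told apart. CLDN4 was above the vector with either construct, whichever way the 2 constructs are named. Only limma-trend on unfiltered TPM ended a call, that of W203C vs plvx neo (adjusted p = 0.0849, against 1.98e-09 to 0.0849 over all alternatives).

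CLDN7 was lowest in W203C. Its CPM was 159, 143 and 149 in plvx neo, 165, 154 and 152 in WT, and 130.2, 134 and 139 in W203C. All W203C libraries were below every library of the other groups, which overlapped each other. CLDN7 fell by 14.5% from WT to W203C (log2 fold change -0.23, SE 0.0418, edgeR adjusted p = 3.43e-04) and by 10.6% from plvx neo to W203C (-0.16, SE 0.0442, edgeR adjusted p = 0.0291). The second call was the less stable: it was lost without plvx neo 1, plvx neo 3, W203C 1 or W203C 2 (edgeR adjusted p of 0.146, 0.102, 0.172 and 0.102) and on TPM, with 6.75e-03 to 0.572 over all alternatives. The first was lost on unfiltered TPM alone (limma adjusted p = 0.0629). From plvx neo to WT the log2 difference was 0.07, with a 95% interval of -0.02 to 0.16. CLDN7 is overlapped on the opposite strand by ELP5, an Elongator subunit gene with a mean count of 1030, and the strand used in counting is not given in the sources used here.

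The other 2 tested claudins passed the test in no comparison. CLDN3, at 10.9 to 14.7 CPM, gave log2 differences of 0.09 (95% interval -0.13 to 0.30) for WT vs plvx neo, -0.08 (-0.30 to 0.14) for W203C vs WT and -0.00047 (-0.23 to 0.23) for W203C vs plvx neo. CLDN12, a claudin that lacks the PDZ-binding end of most claudins, was at 28.8, 35.2 and 32.0 CPM in plvx neo, 35.3, 35.6 and 34.1 in WT, and 32.6, 32.2 and 32.0 in W203C. Its vector libraries spanned nearly the whole range of values, while the constructs did not overlap. The intervals were -0.01 to 0.28 for WT vs plvx neo, -0.25 to 0.01 for W203C vs WT and -0.14 to 0.16 for W203C vs plvx neo. CLDN12 also overlaps GTPBP10 and CDK14 on its own strand.

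Summed over the 5 claudins, the level was 295.9 ± 7.09 TPM (SD, n = 3) in plvx neo, 386 ± 9.22 in WT and 319.8 ± 7.61 in W203C. CLDN4 made up 45.5%, 55.7% and 52.1% of that sum. The ratio of CLDN4 to CLDN7 was 0.911 to 1.04 in the vector libraries, 1.43 to 1.58 in WT and 1.28 to 1.34 in W203C. The ranges of both measures were apart in every pair of groups. CLDN4 is part of both, so this separation is not independent of the CLDN4 result above. With 3 against 3 libraries the two-sided exact permutation test gave p = 0.1 each time, the smallest it allows.

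By counts, CDH1 was higher in WT than in both other groups, while on TPM its W203C libraries overlapped WT, as given below. Its CPM was 69.6, 72.6 and 69.9 in plvx neo, 85.3, 84.2 and 86.5 in WT, and 74.2, 72.3 and 65.8 in W203C. The WT libraries stood apart, while plvx neo and W203C overlapped. CDH1 was 20.9% higher in WT than in plvx neo (log2 fold change 0.27, SE 0.0444, edgeR adjusted p = 1.07e-04) and fell by 17.0% from WT to W203C (-0.27, SE 0.0481, edgeR adjusted p = 2.48e-04). Between W203C and plvx neo the log2 difference was 0.00048, with a 95% interval of -0.11 to 0.11. The gene spans chr16:68737292-68835537 on the plus strand and has 16 exons in its canonical transcript.

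Of the remaining tight junction genes, F11R passed the test in 1 comparison and TJP1 and OCLN in none. F11R was at 133, 127 and 121 CPM in plvx neo, 131, 135 and 137 in WT, and 122, 124 and 123 in W203C. The constructs did not overlap, and the vector libraries spread across both. F11R fell by 8.55% from WT to W203C (log2 fold change -0.13, SE 0.0385, edgeR adjusted p = 0.0153), a call lost without WT 2, WT 3 or W203C 1 (edgeR adjusted p of 0.0530, 0.0655 and 0.0682). The same call was lost in the replicate block with GC and length offsets and in all TPM fits, where the estimate turned positive. The F11R intervals were -0.01 to 0.17 for WT vs plvx neo and -0.14 to 0.04 for W203C vs plvx neo. F11R shares exons with the read-through gene ENSG00000270149, and with the counts of both summed the fall was -0.15 (SE 0.0398, edgeR adjusted p = 0.00710).

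TJP1 was at 114 to 121 CPM in plvx neo, 108 to 119.6 in WT and 114 to 123 in W203C, and the groups overlapped. Its intervals were -0.14 to 0.05 for WT vs plvx neo, -0.03 to 0.16 for W203C vs WT and -0.08 to 0.10 for W203C vs plvx neo. OCLN was at 34.8, 41.1 and 34.0 CPM in plvx neo, 33.2 to 34.0 in WT and 33.3 to 34.9 in W203C. The second vector library alone stood above the others. The OCLN intervals were -0.27 to 0.03, -0.10 to 0.16 and -0.24 to 0.05 in the same order.

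Of the 8 tested genes, 2 were called in WT vs plvx neo, both higher, where 27.8% of all 15289 genes tested were called (13.9% higher). In W203C vs WT 4 of 8 were called, all lower, beside 27.9% of 15052 genes (13.4% lower). In W203C vs plvx neo 2 of 8 were called, CLDN4 higher and CLDN7 lower, beside 5.70% of 15081 genes (3.03% higher and 2.67% lower). The CPM of the groups did not overlap for 2, 5 and 2 of the 8 genes, beside 40.4%, 41.2% and 23.6% of all genes tested. The median log2 fold change of the 8 genes was 0.08, -0.12 and 6.1e-06 in these comparisons, against 0.0061, -0.0078 and -0.0031 over all genes tested. The comparisons share libraries in pairs, so their results are not independent of each other. Because the genes were chosen with earlier results of these data known, the counts beside all genes are a description and not a test.

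**Figure D2:**
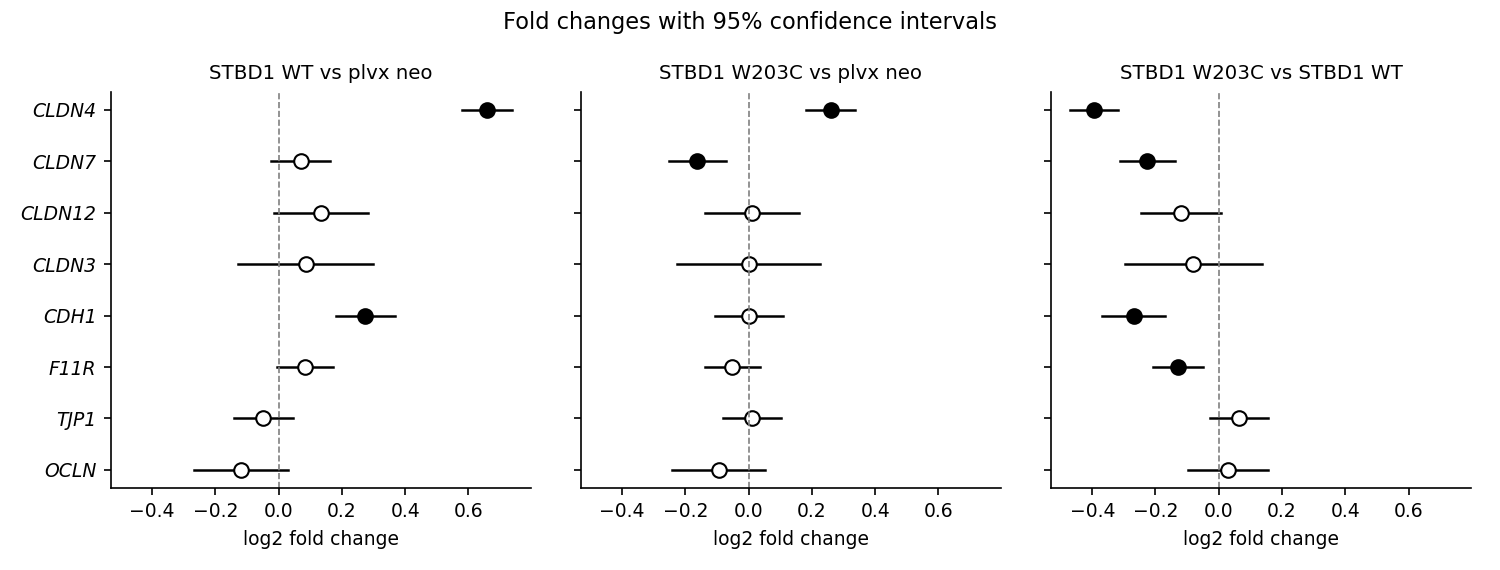
Log2 fold changes (x axis) of the 8 tested junction genes (y axis) in the 3 comparisons, with 95% confidence intervals as bars. Filled points had an edgeR adjusted p below 0.05: CLDN4 in all 3 panels (0.66, 0.26 and -0.39), CDH1 in those that involve WT (0.27 and -0.27), CLDN7 in those that involve W203C (-0.16 and -0.23), and F11R between the constructs (-0.13).

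The same tables also give the mean length of the transcripts assigned to each gene, weighted by their abundance. F11R was at 4640, 4634 and 4643 bases in plvx neo, 4633, 4544 and 4644 in WT, and 4282, 4248 and 4195 in W203C. Every W203C library was shorter than all the others. The mean in W203C dropped by 365 bases against WT and dropped by 397 bases against plvx neo (two-sided exact permutation p = 0.1 each, the smallest possible, and 0.7 and 0.35 after Benjamini-Hochberg adjustment over 7 genes). The canonical F11R transcript has 4639 bases, and the others listed for the gene have 4770, 1245, 577, 571 and 558 bases. Which of them changed in share was not tested. CDH1 was at 3735 to 4468 bases in plvx neo, 3339 to 3812 in WT and 3038 to 3669 in W203C. Only W203C and plvx neo did not overlap (exact permutation p = 0.1). CLDN4 was shorter in WT (1902 ± 5.07 bases, SD, n = 3) than in plvx neo (1924 ± 5.35, exact permutation p = 0.1), with W203C overlapping both at 1910 ± 9.20. Of 7 junction genes whose length varied, 1, 1 and 2 did not overlap in WT vs plvx neo, W203C vs WT and W203C vs plvx neo, all of them shorter in the first-named group, beside 12.2%, 11.2% and 11.4% of 12854 genes (5.57%, 6.64% and 6.22% shorter).

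**Figure D3:**
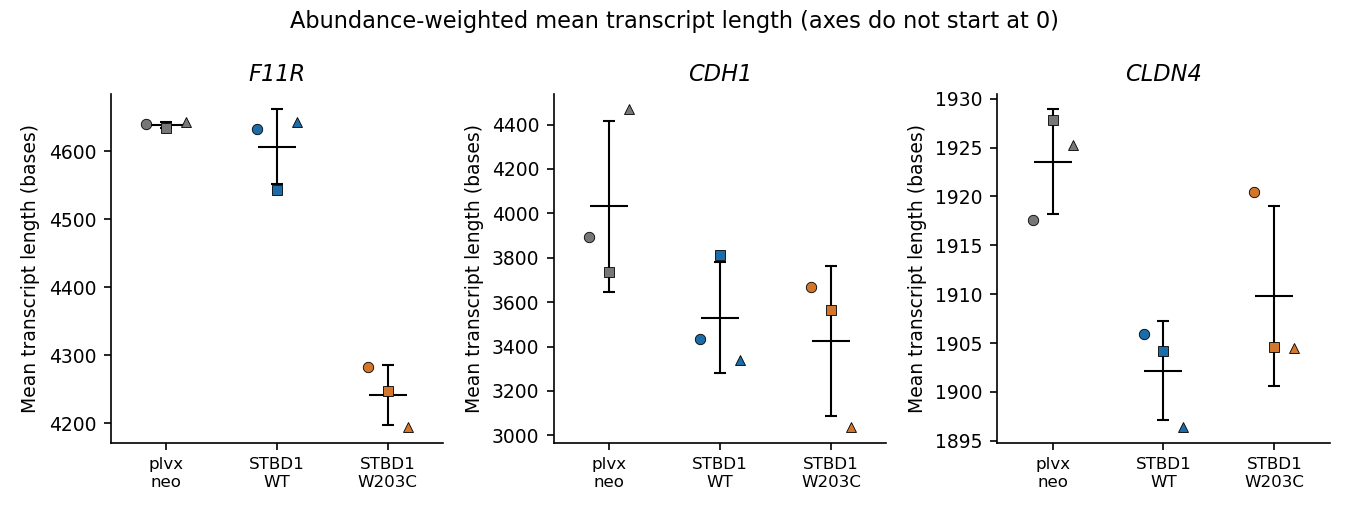
Abundance-weighted mean transcript length in bases (y axes, which do not start at 0) of F11R, CDH1 and CLDN4 in the 3 groups. Points are single libraries and bars are the mean ± SD. F11R is at 4195 to 4282 bases in W203C against 4544 to 4644 in the other groups, whereas the CDH1 libraries of each group are widely spread.

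These lengths enter TPM, and counts and TPM gave different answers for CDH1 and F11R. How much of this came from length was not tested. CDH1 was at 17.7 to 22.1 TPM in plvx neo, 24.6 to 29.6 in WT and 23.3 to 25.1 in W203C. On this scale W203C stood above plvx neo and overlapped WT, unlike in its counts. Limma-trend on log2(TPM + 1) gave CDH1 0.45 for WT vs plvx neo (adjusted p = 0.0245), -0.18 for W203C vs WT (adjusted p = 0.176) and 0.28 for W203C vs plvx neo (adjusted p = 0.193). Without a TPM filter the first was not called either (limma adjusted p = 0.0749). Over all alternatives the adjusted p of CDH1 ran from 7.36e-06 to 0.0749 in WT vs plvx neo and from 2.89e-06 to 0.314 in W203C vs WT. F11R was at 29.5 to 30.9 TPM in plvx neo, 31.3 to 32.9 in WT and 32.5 to 33.7 in W203C, and its difference between the constructs turned from -0.13 in counts to 0.03 in log2(TPM + 1) (limma adjusted p = 0.688). CLDN4 kept its order on both scales, with 134.5 ± 4.94, 215 ± 9.54 and 167 ± 3.42 TPM (SD, n = 3) in plvx neo, WT and W203C.

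Other genes of the same junctions were read from lists of adherens junction partners, other claudins, other tight junction genes and desmosome genes, 59 genes in all. These lists too were chosen with earlier results of these data known. In WT vs plvx neo 19 of 42 tested were called, 17 higher and 2 lower, with a median log2 fold change of 0.13, beside 27.8% of all genes called. In W203C vs WT 20 of 42 were called, 7 higher and 13 lower, with a median of -0.08, beside 27.9%. In W203C vs plvx neo 6 of 43 were called, 4 higher and 2 lower, with a median of 0.03, beside 5.70%. These shares over all genes apply to each list below. DESeq2 called 13, 13 and 4 of these genes, and limma-trend on log2(TPM + 1) with a mean TPM of at least 1 called 10, 7 and 0 (14, 14 and 8 at an unadjusted p below 0.05). Most other claudins were at or near 0, and of 18 only CLDN2, CLDN15 and CLDN23 averaged above 1 CPM, with CLDN23 lower in W203C than in WT (-0.44, SE 0.159, edgeR adjusted p = 0.0441), a call that DESeq2 did not make.

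Among the partners of CDH1, 6 of 11 were called in WT vs plvx neo (5 higher) and 8 of 11 in W203C vs WT (5 lower and 3 higher), where 27.8% and 27.9% of all genes were. DESeq2 called 5 and 6 of them, and limma-trend on log2(TPM + 1) with a mean TPM of at least 1 called 4 and 2 of 10. JUP, the gamma-catenin shared with desmosomes, rose by 0.50 in WT and fell by 0.35 from WT to W203C on the log2 scale (edgeR adjusted p = 1.04e-08 and 9.98e-07), and P-cadherin (CDH3) rose by 0.27 and fell by 0.23 (edgeR adjusted p = 2.76e-05 and 8.98e-05). CDH3, like CDH1, was not called in W203C vs plvx neo, whereas JUP was. CTNNB1, the beta-catenin that binds the CDH1 tail, was 0.04 lower in WT than in plvx neo (edgeR adjusted p = 0.481) and 0.10 higher in W203C than in WT (edgeR adjusted p = 0.0436). The nectin adhesion molecules NECTIN3 and NECTIN1 were also higher in W203C than in WT (0.39 and 0.29, edgeR adjusted p = 3.31e-06 and 3.30e-04), and NECTIN3 was lower in WT than in plvx neo (-0.21). In W203C vs plvx neo 4 of 11 were called: JUP, NECTIN1 and NECTIN3 higher and VCL, the actin linker vinculin, lower (-0.14). DESeq2 called JUP and NECTIN1 alone, and limma called 0 (3 at an unadjusted p below 0.05).

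Of 22 other tight junction genes 20 were tested, and 7 were called in WT vs plvx neo (6 higher) and 6 in W203C vs WT (3 higher), shares near the 27.8% and 27.9% of all genes. DESeq2 called 2 and 3 of them, as did limma on filtered TPM. The count was 0 in W203C vs plvx neo by edgeR (0 at an unadjusted p below 0.05, and 0 called by DESeq2 and by limma). TJP3, the ZO-3 scaffold related to TJP1, was at 39.2 to 41.5 CPM in plvx neo, 51.4 to 58.6 in WT and 37.7 to 42.7 in W203C (log2 fold changes 0.46 and -0.47). CRB3, a polarity protein of the apical membrane, followed with 0.29 and -0.30. MARVELD3, a relative of occludin, and the polarity gene PARD6B were higher in W203C than in WT by edgeR (0.23 and 0.24), but DESeq2 called neither and limma called MARVELD3 alone. All 8 desmosome genes were tested, and 6 were called in WT vs plvx neo, all higher. The counts were 5 in W203C vs WT (4 lower) and 2 in W203C vs plvx neo (1 higher and 1 lower). The desmosomal cadherin DSC2 was higher with either construct (0.55 and 0.48), and PERP rose by 0.39 in WT and fell by 0.30 from WT to W203C. The plakin PPL fell by 0.45 between the constructs and was 0.21 lower in W203C than in plvx neo (edgeR adjusted p = 0.0214). PKP2, a desmosomal plakophilin, was higher in W203C than in WT (0.19, edgeR adjusted p = 0.0365), a call that neither DESeq2 nor limma made. DESeq2 called 6, 4 and 2 desmosome genes and limma on filtered TPM 4, 2 and 0 (4 at an unadjusted p below 0.05 in the last).

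**Figure D4:**
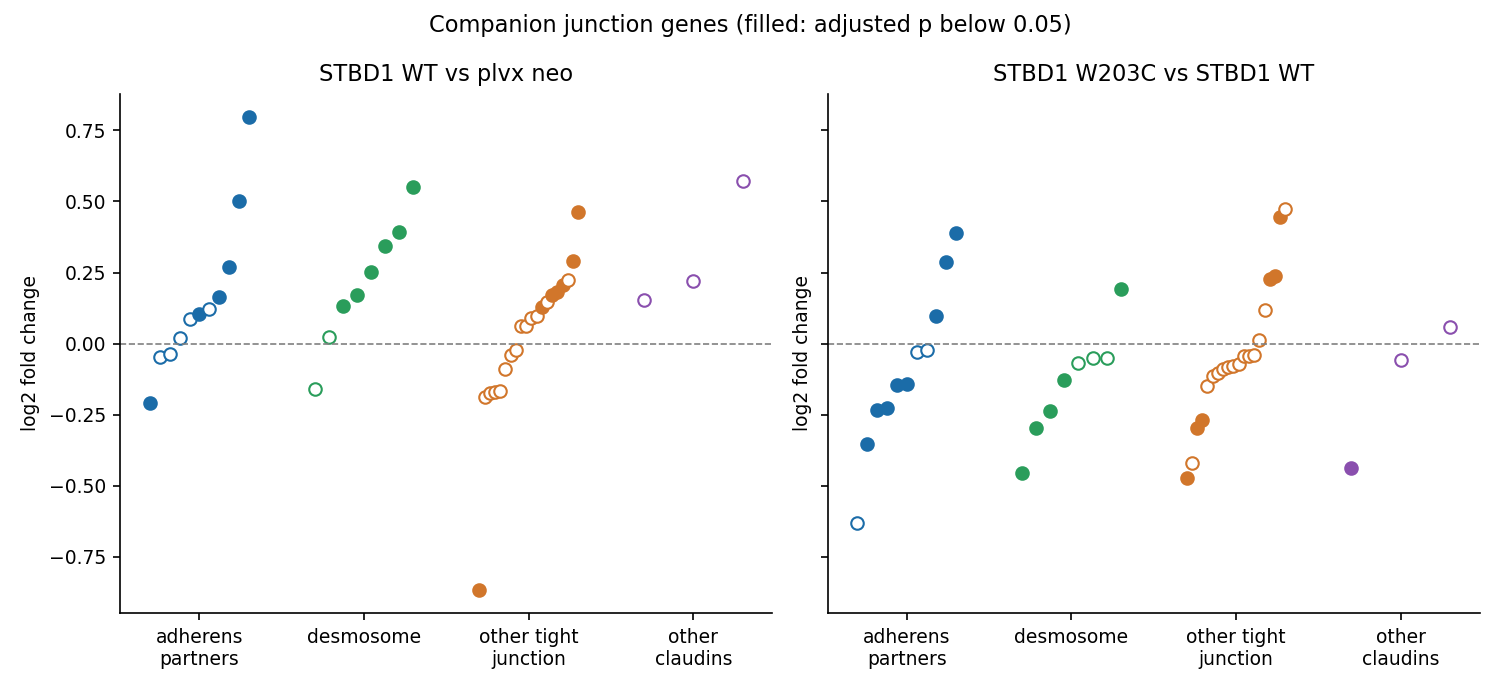
Log2 fold changes (y axis) of the tested companion junction genes, grouped by list (x axis), in WT vs plvx neo (left) and W203C vs WT (right). Each point is a gene, ordered by value within its list and filled where the edgeR adjusted p was below 0.05. In the first panel 17 of 19 filled points lie above 0, and in the second 13 of 20 lie below 0.

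Repressors known to act on CDH1 and claudin genes were not called. SNAI1 was at 27.6 CPM on average, while ZEB1 (3.51 CPM), SNAI2 (0.806 CPM) and the mesenchymal filament gene VIM (2.18 CPM) were low and CDH2 was near 0 and not tested. None of SNAI1, SNAI2, ZEB1 and VIM was called in any comparison by edgeR, DESeq2 or limma (0 at an unadjusted p below 0.05), nor were the epithelial regulators GRHL2 and ESRP1. In WT vs plvx neo the log2 estimates were -0.10 (SE 0.419) for SNAI2, 0.08 (SE 0.237) for VIM and -0.21 (SE 0.190) for ZEB1. Changes as large as that of CDH1 were therefore not excluded for these low genes. Of 6 repressor and mesenchymal genes tested, only the matrix gene FN1 was called, higher in WT than in plvx neo (0.27) and lower in W203C than in WT (-0.38) by edgeR and DESeq2 but not by limma. Of 9 epithelial regulators, 2, 3 and 1 were called, beside 27.8%, 27.9% and 5.70% of all genes, and DESeq2 called 1, 2 and 1. ELF3, an epithelial ETS factor, was at 116 to 124 CPM in plvx neo, 163 to 174 in WT and 129.9 to 139 in W203C, the same order of groups as CLDN4. KLF5 was 0.15 higher in WT than in plvx neo and OVOL1 was lower in W203C than in WT (-0.24) by edgeR, and neither call was made by DESeq2 or limma. KLF5 was also lower in W203C than in WT (-0.18, SE 0.0448, edgeR adjusted p = 0.00465), a call that DESeq2 made and limma did not.

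Epithelial keratins did not move together. KRT19 was higher in WT than in plvx neo (0.43) and lower in W203C than in WT (-0.40), as CDH1 was. KRT18 and KRT8 were lower than in plvx neo with either construct (-0.44 and -0.43 in WT, -0.44 and -0.41 in W203C). EPCAM, an epithelial adhesion protein that binds CLDN7, was 0.11 lower in WT than in plvx neo (edgeR adjusted p = 0.0270). It was 0.14 higher in W203C than in WT. Colon epithelial markers other than CDH1, 5 of them tested, gave 4 calls in WT vs plvx neo (1 higher and 3 lower). They gave 2 in W203C vs WT (1 higher and 1 lower) and 2 in W203C vs plvx neo (0 higher and 2 lower). The shares over all genes were 27.8%, 27.9% and 5.70%. DESeq2 called 4, 2 and 2, and limma on filtered TPM 3, 1 and 2. COL1A1 rose by 0.48 in WT and fell by 0.49 from WT to W203C, the direction of CDH1 and CLDN4, by edgeR and DESeq2 but not by limma, with the remaining fibroblast markers at or near 0 throughout.

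Genes whose level followed a junction gene most closely over the 9 libraries were sought among 10018 genes by Pearson's r of log2(TPM + 1), as a description. They were PLAU (r = 0.995) and SDC4 (0.992) for CLDN4, MFSD11 (0.966) and IRF1 (0.959) for CDH1, LRSAM1 (0.923) and PAQR4 (0.921) for CLDN7, and CTSZ (0.951) and SLC16A9 (0.947) for F11R. The points share their libraries and fall into 3 groups, so any gene with the same group order scores high. CDH1 and F11R gave different answers in TPM and in counts, so the genes named for them follow their TPM and not their counts.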

How the data were processed

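RNA of HCT116 cells was sequenced as Illumina read pairs (NEBNext Ultra kit). According to the methods and processing notes, the authors removed low-quality and adapter reads, used STAR 2.7.1a to align to hg38 under Ensembl gene models, and ran RSEM 1.3.1. The deposited tables, 1 per library, hold RSEM expected counts, TPM and mean transcript length. Counting by strand is not given in the sources used here. The replicates were described as biological, but whether they came from separate cultures is not stated, so p-values measure the spread between these libraries.

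Expected counts were rounded and each pair of groups was fitted alone in edgeR 4.0.16 (R 4.3.3: filterByExpr, TMM, quasi-likelihood F-test, two-sided), with Benjamini-Hochberg adjustment over all genes tested and a threshold of 0.05. SE was the log2 fold change divided by the square root of F. Alternatives used DESeq2 1.42.0, limma 3.58.1, other filters, GC and length offsets, a replicate block and left-out libraries. On simulated data for WT vs plvx neo (15276 genes), 100% of 1.5-fold and 52% of 1.2-fold changes were recovered. Changes were placed only in genes with a mean count of at least 100, with the same dispersion for all genes. Recovery in genes with fewer counts was not tested. The authors named WT vs plvx neo and W203C vs WT. W203C vs plvx neo was added here.

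The junction genes and gene lists were chosen with earlier results of these data known. Per comparison, each list's 2 largest rises and 2 largest falls among called genes with at least 5 CPM were named. GRHL2, ESRP1, ZEB1, SNAI1, SNAI2, VIM, CDH2, CTNNB1 and STBD1 were named whatever their result. CLDN2, CLDN15, VIL1 and FAM47E-STBD1 were named after their values were seen, and the KLF5 difference between WT and W203C was added likewise. So was the EPCAM difference between WT and plvx neo. Symbols matched 57754 identifiers (98.9%). Exons are from GENCODE (hg38) and promoters from RefSeq.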

Additional observations from a re-analysis of the deposited data

How the results depend on the processing

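Under the count-based alternatives that used all libraries of a pair, the number of junction genes called stayed within 1.5 times of the 2, 4 and 2 given above for WT vs plvx neo, W203C vs WT and W203C vs plvx neo. The TPM fits moved it. Limma-trend on log2(TPM + 1) with a mean TPM of at least 1 gave 2 in W203C vs WT and 1 in W203C vs plvx neo. With a pseudocount of 0.1 it gave 2 and 1 again. Without a TPM filter it gave 1, 1 and 0 in the 3 comparisons (3 at an unadjusted p below 0.05 in the last). These fits change test, scale and unit together, and the cause was not tested. F11R in W203C vs WT turned from -0.13 to 0.034, 0.035 and 0.034 in these 3 TPM fits (adjusted p of 0.688, 0.692 and 0.689). Leaving out 1 library at a time gave 2 to 3, 3 to 4 and 1 to 2 called genes, and 1 to 3, 1 to 3 and 2 to 4 genes with mean transcript lengths that did not overlap. Replicate numbers are shared between groups, but same-numbered libraries showed little common deviation (mean r = 0.0139 over 9 pairs, against -0.00694 over 18 differently numbered pairs), so they were not treated as paired, and the replicate block gave 2, 4 and 2. The block with GC and length offsets gave 3, 3 and 2. Over single junction genes, 385 alternatives kept the side of the threshold, 17 lost a call, 3 gained one, and the called F11R value turned around in the 3 above. CLDN12 gained calls in WT vs plvx neo (lowest edgeR adjusted p = 0.0378). These came without plvx neo 2 and in the replicate block with GC and length offsets. TJP1 gained a call in W203C vs WT under GC and length offsets (edgeR adjusted p = 0.0478). In 33 of the 385, all on genes not called, the estimate changed sign, among them CLDN3 and CLDN7 in WT vs plvx neo under GC and length offsets (-0.09 and -0.03). About 1.2-fold changes were recovered only in part with 3 libraries per group.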
